A study of Mus musculus with 8 samples.

Results

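The genes described are 10 genes of the urea cycle and of neighbouring nitrogen metabolism in mouse liver, namely Nags, Cps1, Otc, Slc25a15, Ass1, Asl, Arg1, Gls2, Hal and Sds. They were chosen by symbol, by taking every non-control probe on the arrays whose accession belongs to one of these genes. The rule uses no measured value, although the set was named with earlier results of these data known. This gave 12 of the 55681 probes, and 10 of the 19752 genes that could be named. All 12 probes were well above background on 8 of 8 arrays, so all 10 genes were among the 14066 tested.

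Ammonia is toxic, and the liver turns it into urea in a cycle of enzymes that starts in the mitochondrion and ends in the cytosol. Hepatocytes next to the portal vein carry most of this capacity, together with enzymes that release ammonia from amino acids such as glutamine, histidine and serine. Ammonia that passes these cells is bound into glutamine by hepatocytes around the central vein.

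Liver RNA came from 4 Rap1 -/- and 4 wild-type mice aged 10 weeks, all on a C57BL6/129SV background (90% to 10%) and described as biological replicates. The Rap1 -/- mice lack RAP1, a telomere-binding protein that also binds elsewhere along chromosomes, in the whole body. Per the study's methods the floxed allele was recombined by EIIa-cre, and the cre transgene was then bred out of the colony. The labels state neither sex nor feeding state. The study describes the young mice that it profiled as females, and describes fed as well as fasted livers. Whole liver was read, so fewer cells of a type and less RNA per cell cannot be told apart.

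Each RNA was hybridised to a single-colour Agilent array, and levels are given as log2 signal relative to the 75th percentile of the same array, so that 0 is the level of a probe at that percentile. Levels of different probes are not compared. The 8 arrays lay on 2 slides, each with replicates of both genotypes: Rap1 -/- replicates 1 and 2 with wild-type replicates 1 and 2 on slide 1, and the others on slide 2. On both slides the Rap1 -/- samples held positions 3 and 4 and the wild-type samples positions 1 and 2, so position and genotype cannot be told apart. The share of probes well above background was 50.03% to 65.3% over the arrays, whose correlations with each other ran from 0.984 to 0.993. The targeted gene, Terf2ip, was well above background in 0 of 4 Rap1 -/- livers and 4 of 4 wild-type livers with probe A_52_P381806, at -6.57 to -5.65, against 0.03 to 0.23 in wild-type livers, at least 19.0-fold lower (adjusted p = 7.09e-06 over all probes, limma). Its other probe, A_55_P2094079, lay between 0.03 and 0.44 in Rap1 -/- livers and between -1.12 and -0.69 in wild-type livers (adjusted p = 0.127, limma).

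Of the 10 genes, 0 differed between genotypes at an adjusted p under 0.05 in limma, a threshold that 0.0142% of all genes passed. Of their 12 probes 0 passed, against 0.00644% of all probes. At an unadjusted p under 0.05 the count was also 0 of 10, against 6.36% of all genes (4.01% higher and 2.35% lower in Rap1 -/- livers). In 0 of 10 were the Rap1 -/- and wild-type levels free of overlap, against 4.31% of all genes. Point estimates were small and mostly positive. The log2 fold change (Rap1 -/- minus wild-type) was above 0 for 9 of 10 genes, against 56.1% of all genes, with a median of 0.15 against 0.02 over all genes. With quantile normalization of the processed signal these were 8 of 10 genes and 0.09, with normexp and quantile normalization 7 of 10 and 0.07, and in the authors' table also 7 of 10 and 0.07, against medians of 0.01 to 0.02 over all genes. The 95% intervals of the 10 genes together spanned -0.48 to 0.67, that is, 0.719-fold to 1.59-fold. The interval of each gene gives the differences that the 4 arrays per genotype leave possible for it.

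The set of RefSeq promoter windows used (GRCm38.p6) covered 5 of the 10 genes, with 6 windows of 250 bases ending at the annotated start. The windows of 3 genes are printed, those of the genes with the largest (Otc) and the smallest (Nags) difference between genotypes and of Hal, the only gene of the 5 with a match to a motif searched. They lie at chrX:10252055-10252304 for Otc, chr11:102145263-102145512 for Nags and chr10:93488518-93488767 for Hal, all on the + strand, and capitals mark motif matches.
Otc: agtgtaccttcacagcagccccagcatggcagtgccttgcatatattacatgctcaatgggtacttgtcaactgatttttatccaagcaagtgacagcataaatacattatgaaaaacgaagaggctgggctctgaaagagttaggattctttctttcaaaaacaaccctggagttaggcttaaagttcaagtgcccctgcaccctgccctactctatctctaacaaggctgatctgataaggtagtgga
Nags: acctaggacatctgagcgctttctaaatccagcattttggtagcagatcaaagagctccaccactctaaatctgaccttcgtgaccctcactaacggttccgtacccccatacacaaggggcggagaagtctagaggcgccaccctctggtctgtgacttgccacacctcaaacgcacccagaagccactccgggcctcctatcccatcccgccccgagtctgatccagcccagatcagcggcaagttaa
Hal: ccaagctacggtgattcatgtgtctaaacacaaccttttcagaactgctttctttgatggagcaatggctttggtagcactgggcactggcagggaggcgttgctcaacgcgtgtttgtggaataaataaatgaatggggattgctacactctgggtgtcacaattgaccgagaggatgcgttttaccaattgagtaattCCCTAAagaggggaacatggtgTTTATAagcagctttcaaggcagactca
The telomere repeat unit TTAGGG, the sequence known to be bound by the complex that RAP1 belongs to, was searched on both strands. Per the study, RAP1 prefers a tandem repeat of this unit along chromosome arms, whereas the single unit was searched here. The single unit occurred in 1 of the 6 windows and in 9.32% of 32851 RefSeq promoter windows of that length. The match in Hal reads CCCTAA, 50 to 45 bases before the start. The letters TATAAA occurred in the same Hal window as TTTATA, 28 to 23 bases before the start, and in 12.4% of all windows. The letters TGACG, the core of the cAMP response element, were in 0 of 6 windows and in 17.8% of all windows. A match is a description of letters and not a binding site.

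The mitochondrial steps begin with Nags, the synthase that makes N-acetylglutamate, the obligate activator of carbamoyl phosphate synthetase. Nags stood at 2.85, 3.05, 2.90 and 2.90 in Rap1 -/- livers, against 2.78, 2.70, 3.21 and 3.02 in wild-type livers. All Rap1 -/- livers lay inside the wild-type range. The means were 2.92 ± 0.08 in Rap1 -/- and 2.93 ± 0.23 in wild-type livers (SD, n = 4 each), a difference of -0.0036 with a 95% interval of -0.29 to 0.29 (adjusted p = 0.999, limma).

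Cps1 encodes carbamoyl phosphate synthetase, which takes up free ammonia at the entry of the cycle. Cps1 stood at 5.49, 5.82, 5.39 and 5.53 in Rap1 -/- livers, against 5.41, 4.89, 5.75 and 5.18 in wild-type livers. Wild-type replicates 2 and 4 lay below every Rap1 -/- liver, whereas wild-type replicate 3 lay above all of them except replicate 2. The means were 5.56 ± 0.18 in Rap1 -/- and 5.31 ± 0.36 in wild-type livers (SD, n = 4 each), a log2 fold change of 0.25 with SE 0.18 and a 95% interval of -0.17 to 0.67 (adjusted p = 0.848, limma; two-sided exact permutation p = 0.286).

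Otc, the X-linked gene for ornithine transcarbamylase, which joins carbamoyl phosphate to ornithine, had the largest difference of the 10 genes. Its brighter probe, A_52_P286360, read 6.33, 6.30, 5.99 and 6.29 in Rap1 -/- livers, against 5.88, 5.66, 6.16 and 5.998 in wild-type livers. Rap1 -/- replicates 1, 2 and 4 lay above every wild-type liver, and Rap1 -/- replicate 3 lay below wild-type replicates 3 and 4. The log2 fold change was 0.30 with SE 0.13, a 1.23-fold higher level whose 95% interval ran from just under 0 to 0.61 (adjusted p = 0.780, limma). The two-sided exact permutation p was 0.0857, where 0.0286 is the smallest that the 70 ways to part 8 arrays allow.

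The other Otc probe, A_51_P126563, was spotted 10 times on each array. It read 4.22, 4.43, 4.23 and 4.16 in Rap1 -/- livers, against 3.93, 3.43, 4.22 and 4.11 in wild-type livers. The SD between livers was 0.12 in Rap1 -/- and 0.35 in wild-type livers. Spots of 1 array, which share RNA, labelling and hybridisation, had an SD of at most 0.07. Both probes thus placed wild-type replicate 2 lowest. With this probe the log2 difference was 0.33 with a 95% interval of -0.06 to 0.73 (adjusted p = 0.819 over all probes, limma).

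Slc25a15 encodes the mitochondrial carrier that brings ornithine in and takes citrulline out. Slc25a15 stood at 0.90, 0.72, 0.78 and 0.89 in Rap1 -/- livers, against 0.74, 0.45, 0.91 and 0.71 in wild-type livers. Every Rap1 -/- liver lay below wild-type replicate 3 and above wild-type replicates 2 and 4. This gave a log2 fold change of 0.12 with SE 0.12 and a 95% interval of -0.14 to 0.39 (adjusted p = 0.881, limma).

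**Figure D1:**
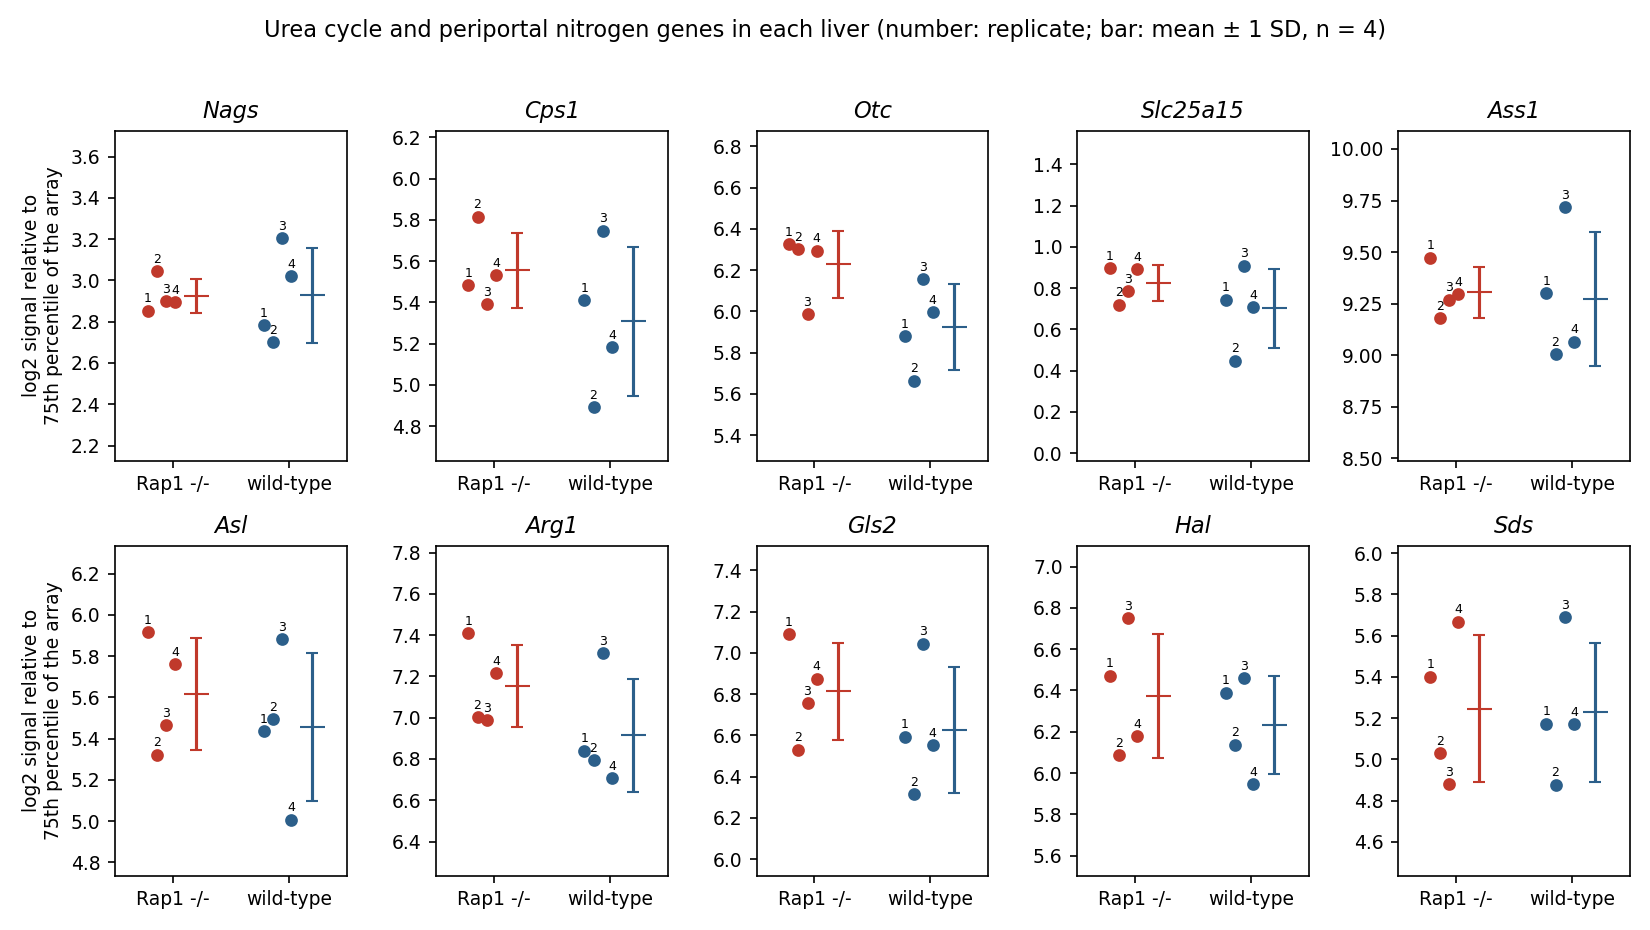
Level of each of the 10 genes in every liver (vertical axis, log2 signal relative to the 75th percentile of the array), with Rap1 -/- livers left of wild-type livers, replicate numbers beside the points, and bars for the mean ± 1 SD (n = 4 each). The 2 genotypes overlap in all 10 panels, and a wild-type liver is the lowest point in each.

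In the cytosol, Ass1 encodes argininosuccinate synthetase, which condenses citrulline with aspartate and so brings in the second nitrogen. Its brighter probe, A_55_P2004781, read 9.47, 9.18, 9.27 and 9.30 in Rap1 -/- livers, against 9.30, 9.01, 9.72 and 9.07 in wild-type livers. The Rap1 -/- livers lay inside the wild-type range, and wild-type replicate 3 was highest. The log2 fold change was 0.03 with SE 0.16 and a 95% interval of -0.34 to 0.40 (adjusted p = 0.990, limma). Its other probe, A_55_P2143070, gave 0.04 (adjusted p = 0.979 over all probes). The highest intensity of any of the 12 probes was that of Ass1 in wild-type replicate 3, at 22.3% of the value at which the scanner saturates, and 0 of 96 readings were saturated.

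Asl encodes argininosuccinate lyase, which splits argininosuccinate into arginine and fumarate. Asl stood at 5.92, 5.32, 5.47 and 5.76 in Rap1 -/- livers, against 5.44, 5.50, 5.88 and 5.01 in wild-type livers. The genotypes were interleaved, with Rap1 -/- replicate 1 at the top and wild-type replicate 4 at the bottom. A log2 fold change of 0.16 resulted, with SE 0.20 and a 95% interval of -0.30 to 0.62 (adjusted p = 0.910, limma).

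Arg1, the liver arginase, releases urea and regenerates ornithine. Arg1 stood at 7.41, 7.002, 6.99 and 7.22 in Rap1 -/- livers, against 6.84, 6.80, 7.31 and 6.71 in wild-type livers. Wild-type replicates 1, 2 and 4 lay below every Rap1 -/- liver, and wild-type replicate 3 lay above all of them except replicate 1. The means were 7.15 ± 0.20 in Rap1 -/- and 6.91 ± 0.27 in wild-type livers (SD, n = 4 each), a log2 fold change of 0.24 with SE 0.16 and a 95% interval of -0.12 to 0.60 (adjusted p = 0.832, limma; two-sided exact permutation p = 0.2).

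The last 3 genes release ammonia from amino acids in periportal hepatocytes. Gls2 encodes the liver glutaminase, which delivers ammonia from glutamine inside the mitochondrion. Gls2 stood at 7.09, 6.53, 6.76 and 6.88 in Rap1 -/- livers, against 6.59, 6.31, 7.04 and 6.55 in wild-type livers. Wild-type replicate 2 was the lowest and Rap1 -/- replicate 1 the highest of the 8. The difference on the log2 scale was 0.19 with SE 0.18 and a 95% interval of -0.21 to 0.59 (adjusted p = 0.881, limma).

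Hal encodes histidine ammonia-lyase, the first step of histidine breakdown. Hal stood at 6.47, 6.09, 6.75 and 6.18 in Rap1 -/- livers, against 6.39, 6.14, 6.46 and 5.95 in wild-type livers. Rap1 -/- replicate 3 had the highest and wild-type replicate 4 the lowest level of the 8. On the log2 scale Hal differed by 0.14 with SE 0.18 and a 95% interval of -0.26 to 0.54 (adjusted p = 0.911, limma).

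Sds encodes serine dehydratase, which turns serine into pyruvate and ammonia and is known to be sensitive to diet and glucagon. Sds stood at 5.40, 5.03, 4.88 and 5.67 in Rap1 -/- livers, against 5.17, 4.88, 5.69 and 5.17 in wild-type livers. The Rap1 -/- livers spanned 0.79 and the wild-type livers 0.81, the same interval almost to its ends. The log2 fold change was 0.02 with SE 0.22 and a 95% interval of -0.48 to 0.51 (adjusted p = 0.996, limma).

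**Figure D2:**
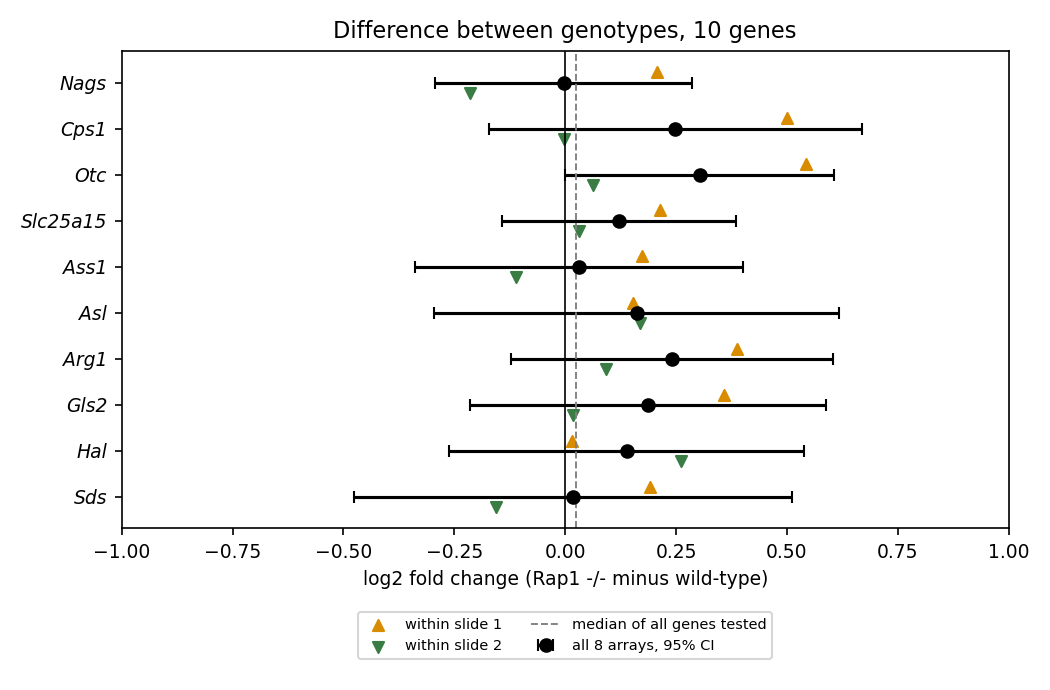
Difference between genotypes for each gene (horizontal axis, log2 fold change, Rap1 -/- minus wild-type), as the estimate from all 8 arrays with its 95% interval (black), the estimates within slide 1 and slide 2 (triangles) and the median of all genes tested (dashed). All 10 intervals include 0, and Otc has the largest estimate at 0.30.

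Each slide holds 2 livers per genotype, so the comparison can also be read within a slide. Within slide 1 all 10 genes had a log2 fold change above 0, against 57.4% of all genes, with a median of 0.21 against 0.05 over all genes. Within slide 2 the count was 6 of 10, against 52.8% of all genes, with a median of 0.02 against 0.01 over all genes. Otc differed by 0.54 within slide 1 and by 0.06 within slide 2, and Cps1 by 0.50 within slide 1 and -0.0021 within slide 2. Otc was the 1 gene of the 10 at an unadjusted p under 0.05 within slide 1, against 4.31% of all genes, and within slide 2 there were 0, against 3.73%. Nags, Ass1 and Sds were above 0 within slide 1, at 0.21, 0.17 and 0.19, and below 0 within slide 2, at -0.22, -0.11 and -0.16. Hal ran the other way, with 0.02 within slide 1 and 0.26 within slide 2. Whether the slides differ was not tested, and the smallest adjusted p of the 10 genes within a slide was 0.962.

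The same few livers lay at the ends of the range for most of the 10 genes. The lowest of the 8 livers was a wild-type liver for all 10 genes: wild-type replicate 2 for 7 genes, against 13.9% of all genes, and wild-type replicate 4 for 3 genes, against 12.1%. The highest was wild-type replicate 3 for 4 genes, against 8.12% of all genes. For another 4 it was Rap1 -/- replicate 1, for which the share of all genes was not computed. As deviation from each gene's mean over the 8 arrays, averaged over the 10 genes, the Rap1 -/- replicates stood at 0.20, -0.03, -0.01 and 0.13, against -0.08, -0.30, 0.28 and -0.20 in the wild-type replicates. Over all genes these mean deviations stayed between -0.06 and 0.03.

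The SD between livers was larger in wild-type than in Rap1 -/- livers for 8 of the 10 genes, against 46.6% of all genes. The median SD of the 10 genes was 0.19 in Rap1 -/- and 0.29 in wild-type livers, whereas over all genes it was 0.21 in Rap1 -/- and 0.19 in wild-type livers. The order of the livers depended in part on the scaling. With quantile normalization wild-type replicate 2 was lowest for 8 genes, against 13.8% of all genes. With each array scaled by its median, wild-type replicate 4 was lowest for 10 of 10 genes and for 69.6% of all genes, with a mean deviation of -0.64 for the 10 genes and -0.42 for all genes. Without wild-type replicate 3, the log2 fold changes of Cps1, Otc and Arg1 were 0.40, 0.38 and 0.37 (adjusted p = 0.752 for each, limma). At an unadjusted p under 0.05 these were then 3 of 10 genes, higher in Rap1 -/- livers, against 4% of all genes. At an adjusted p under 0.05, 0 passed, against 0.00711% of all genes. Wild-type replicate 3 stood highest in the mean of the 10 genes, so leaving it out raises their mean difference. Without wild-type replicate 2, which stood lowest in that mean, Cps1, Otc and Arg1 had 0.11, 0.22 and 0.20. The smallest unadjusted p of the 10 genes was then 0.134 (limma).

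**Figure D3:**
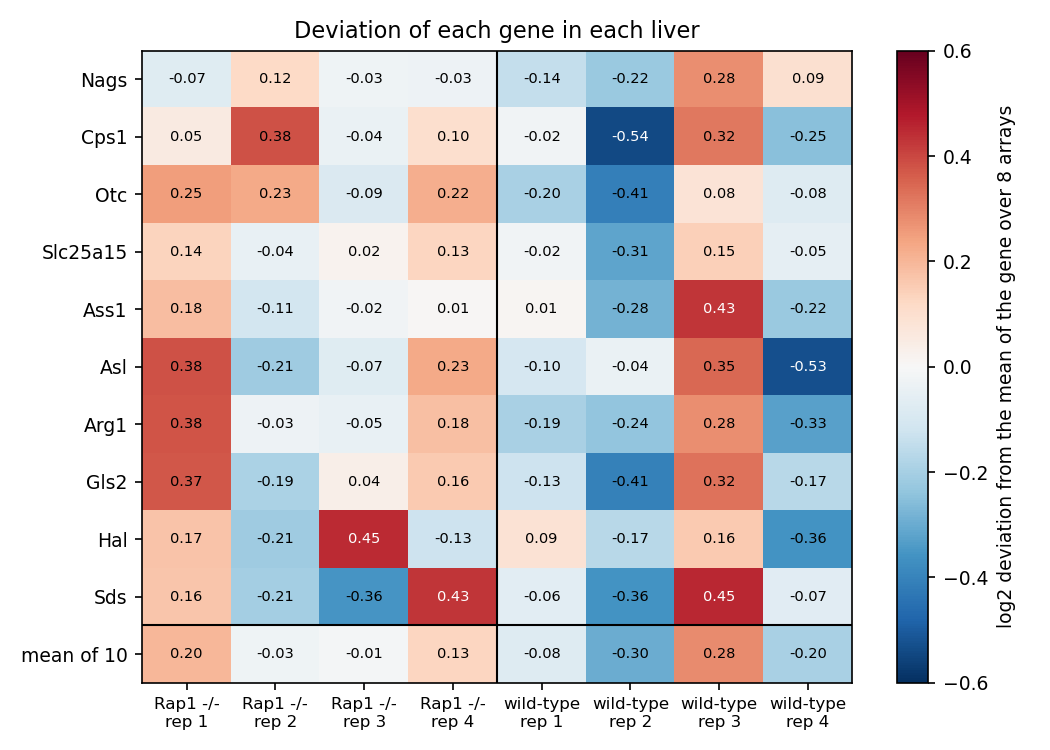
Deviation of each gene in each liver from the gene's mean over the 8 arrays (colour and printed value, log2), with the 4 Rap1 -/- livers left of the 4 wild-type livers and the mean of the 10 genes in the bottom row. Wild-type replicate 3 stands high at 0.28 and wild-type replicate 2 low at -0.30 in the mean, while the Rap1 -/- livers lie between -0.03 and 0.20.

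The 10 genes followed this common profile to different degrees. Ranked among 14062 genes by the root mean square difference of a gene's centred profile from the mean profile of the 10 over the 8 arrays, Slc25a15 was 6th, Ass1 8th, Arg1 16th and Gls2 24th, while Otc was 348th, Nags 917th, Cps1 1548th, Asl 1581st, Sds 2131st and Hal 4229th. The members help to make this mean, so their ranks are a description. The genes outside the set with the most similar profile were Tbcel, Rabggta, Mpv17l2, Tom1l1 and Sfxn2, with differences of 0.0690 to 0.0770 on the log2 scale.

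Some close relatives of the 10 genes were read on the same arrays. Arg2, the mitochondrial arginase, was well above background in 0 of 4 Rap1 -/- and 1 of 4 wild-type livers, and Slc25a2, a related ornithine carrier, in 0 of 8, so neither was tested. Sdsl, a serine dehydratase-like gene, had a log2 fold change of -0.03 (SE 0.12, adjusted p = 0.984).

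Genes that feed or drain the cycle gave no call either. Of 13 partners, which supply bicarbonate, glutamate-derived ammonia and aspartate or carry urea, 0 passed the adjusted threshold. A log2 fold change above 0 was found for 11, with a median of 0.13. At an unadjusted p under 0.05, 1 was higher in Rap1 -/- livers and 0 were lower. For this list and those that follow, 56.1% of all genes were above 0. At an unadjusted p under 0.05, 4.01% of all genes were higher and 2.35% lower. Sirt5, the mitochondrial deacylase that acts on carbamoyl phosphate synthetase, had 0.37 (SE 0.14, adjusted p = 0.770). The malate dehydrogenase gene Mdh1 and the aspartate aminotransferase gene Got2, which belong to the malate-aspartate shuttle, had 0.23 and 0.20 (adjusted p = 0.783 each). The mean deviation of these partners was -0.07 in wild-type replicate 2 and 0.05 in wild-type replicate 3, where the 10 genes stood at -0.30 and 0.28.

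Most genes of amino acid breakdown outside the set also had point estimates above 0. Of 15 genes of histidine, serine and glycine catabolism 0 passed the adjusted threshold and 11 were above 0, with 3 higher and 1 lower in Rap1 -/- livers at an unadjusted p under 0.05 and a median of 0.14. Agxt2, a mitochondrial aminotransferase for glyoxylate, had 0.56 (SE 0.15, adjusted p = 0.770), with 4.27, 4.07, 4.32 and 3.98 in Rap1 -/- livers against 3.46, 3.56, 3.98 and 3.40 in wild-type livers. Wild-type replicate 3 lay just above Rap1 -/- replicate 4, and the other wild-type livers lay below every Rap1 -/- liver. Tdh, threonine dehydrogenase, had -0.54, and Thnsl2, a threonine synthase-like gene, had 0.25 (adjusted p = 0.770 each).

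Among 31 tested genes of 33 for the catabolism of other amino acids, 30 had a log2 fold change above 0, with a median of 0.15. At an unadjusted p under 0.05, 3 were higher in Rap1 -/- livers and 0 were lower. Over all genes 56.1% were above 0, and 4.01% were higher and 2.35% lower at that threshold. The 31 genes were read in the same 8 livers, so their signs are not independent. The number past the adjusted threshold was 0. Mccc1, of leucine breakdown, had 0.35 (SE 0.11, adjusted p = 0.770), Dmgdh, of choline breakdown, 0.30 (adjusted p = 0.770) and Bhmt, which remethylates homocysteine with betaine, 0.66 (SE 0.28, adjusted p = 0.776). Their mean deviations were 0.23, -0.02, 0.10 and 0.06 in the Rap1 -/- replicates, against -0.16, -0.21, 0.21 and -0.21 in the wild-type replicates. The sign was that of the 10 genes in each liver except Rap1 -/- replicate 3. Their median log2 fold change was 0.26 within slide 1 and 0.07 within slide 2. Leaving out 1 array at a time, 1 to 11 of the 31 were at an unadjusted p under 0.05, with the 11 and a median of 0.25 without wild-type replicate 3, where 6.55% of all genes were.

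Carriers and regulators had medians nearer to that of all genes. Of 10 tested amino acid transporters 6 were above 0, with a median of 0.04. Slc7a5, Slc7a8 and Slc16a10, which carry large neutral and aromatic amino acids, had 0.40, -0.23 and -0.20. Of 16 genes for regulators of the cycle, among them the glucagon receptor and the factors that answer it, 7 were above 0, with a median of -0.04. Foxa2, a hepatocyte transcription factor, had 0.29, Creb1, the cAMP-responsive factor, -0.33 and Nr3c1, the glucocorticoid receptor, 0.14. In both lists 0 genes passed at an adjusted p or at an unadjusted p under 0.05.

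Markers of zonation outside the set were read as well. Of 11 other periportal markers 4 were above 0, with a median of -0.09, and none was past an unadjusted p under 0.05, with Cyp2f2, a cytochrome P450, at 0.26, Cdh1, the epithelial cadherin, at -0.29 and Fbp1, of gluconeogenesis, at 0.13. Within slide 1 and slide 2 the median of these periportal markers was 0.12 and 0.02, against 0.05 and 0.01 over all genes. Their mean deviation was 0.06 in wild-type replicate 2, -0.01 in wild-type replicate 3 and 0.29 in wild-type replicate 4, where the 10 genes stood at -0.30, 0.28 and -0.20. The SD of single markers between wild-type livers ran from 0.17 to 0.79, so the most variable weigh most in this mean. In the same livers Cyp2f2 stood at 8.02, 8.43 and 8.02, Cdh1 at 1.55, 2.04 and 2.01, and Fbp1 at 9.36, 9.22 and 9.16. Of 12 tested pericentral markers 7 were above 0, with a median of 0.10, of which 1, Lect2, was higher at an unadjusted p under 0.05 (0.29, adjusted p = 0.770). Tbx3, a pericentral transcription factor, had -0.31, and Oat, ornithine aminotransferase, which links ornithine to glutamate outside the cycle, had 0.36 (adjusted p = 0.840 each).

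**Figure D4:**
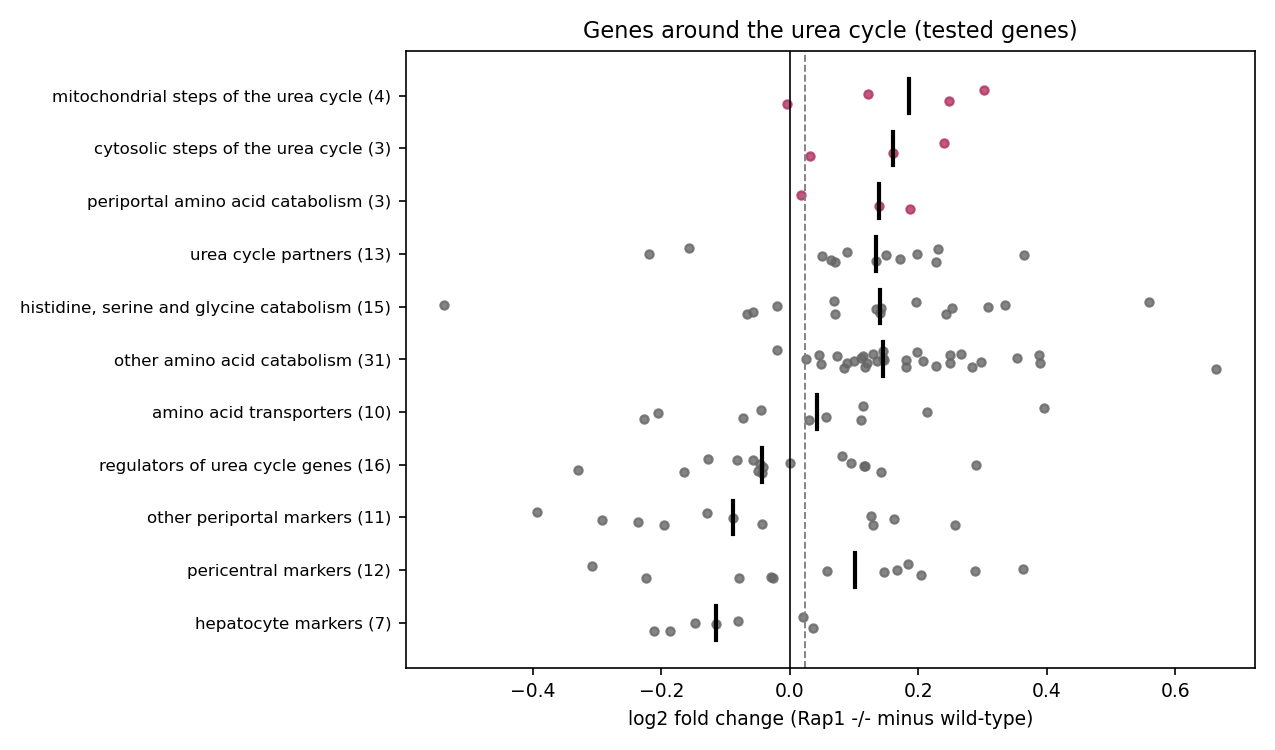
Log2 fold change (horizontal axis, Rap1 -/- minus wild-type) of each tested gene in the groups around the urea cycle (rows, number of tested genes in brackets), with the 10 genes in red, the median of each row as a black bar and the median of all genes as a dashed line. The rows of amino acid catabolism have medians of 0.14 and 0.15, and those of regulators, other periportal and hepatocyte markers lie below 0.

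Markers of the cells present gave the following background. Of 7 tested hepatocyte markers 2 were above 0, with a median of -0.11. Alb, serum albumin, was at -0.21 (SE 0.09, adjusted p = 0.770), with 10.76 to 10.82 in Rap1 -/- livers and 10.91 to 11.11 in wild-type livers, which did not overlap (4.31% of all genes). The summed level of these markers, as log2 of the sum, ran from 12.782 to 12.866 in Rap1 -/- livers and from 12.894 to 13.085 in wild-type livers. Their mean deviation was 0.06 in wild-type replicate 2, the liver lowest for the 10 genes. Of 7 Kupffer cell markers 0 were above 0 (median -0.17; summed level 6.82 to 7.59 in Rap1 -/- and 7.14 to 7.71 in wild-type livers), and of 6 cholangiocyte markers 5 were (median 0.43; summed level 2.42 to 3.39 in Rap1 -/- and 2.10 to 2.65 in wild-type livers). Medians were 0.06 for 7 endothelial and 0.06 for 7 stellate cell markers. Of 3 tested genes each, the medians were -0.07 for T cells, -0.80 for neutrophils, 0.27 for erythroid and 0.28 for pancreatic acinar cells. Within slide 1 and slide 2 the medians were -1.65 and 0.18 for neutrophil, -0.35 and 0.20 for T cell and -0.37 and 0.0018 for Kupffer cell markers. The endothelial (-0.11 and 0.22) and stellate cell medians (-0.08 and 0.20) also turned sign. Those of hepatocyte, cholangiocyte, erythroid and acinar cell markers kept theirs. In all of these marker lists 0 genes passed the adjusted threshold, and their part in the values of the 10 genes was not tested.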

How the data were processed

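Liver RNA of 4 Rap1 -/- and 4 wild-type mice was read on 8 single-colour arrays. Per the file headers, the deposited scanner values are intensity on a linear scale from Agilent Feature Extraction 10.7.3.1, background-subtracted and not normalized between arrays, whereas the methods of the study give a different release. The authors also deposited a table on the log2 scale. Set against normexp correction (offset 50) with quantile normalization, its median absolute difference was 0.0017, and 99.5% of values lay within 0.05. It was used as an alternative. RNA Integrity Numbers were 6.5 to 8.5 per the labels.

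Outlier spots were left out, log2 values of repeated spots averaged, and the 75th percentile of each array subtracted (an intensity of 220 to 227 in Rap1 -/- and 179 to 209 in wild-type arrays). Symbols came from RefSeq accessions of GRCm38.p6 for 26056 probes (46.8%). The arrays were annotated on mm9, so only the promoter windows carry coordinates, from GRCm38.p6. Probes well above background on at least 4 of 8 arrays were tested (31068), and each gene by its brightest probe. Genotypes were compared with limma 3.58.1 in R 4.3.3 (lmFit, eBayes, no covariates), with Benjamini-Hochberg adjustment over all 14066 genes or 31068 probes and a threshold of 0.05. The fit was tested on simulated data. Exact permutation tests were two-sided. The bound for a dim probe uses the lowest signal well above background on each array. Profiles and overlaps are over 14062 genes.

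The alternatives were the background correction, scaling, filter, probe rule, variance model, slide, replicate number and leaving out each array. The normexp alternatives use the median spot signal, because the scanner files hold no mean signal. Named are all 10 genes, Terf2ip, their close relatives, up to 3 genes of the smallest p from each list, and the 5 genes with the most similar profile. The 10 genes and all lists were chosen with earlier results of these data known. The number of arrays limits the precision. One gene that this rule names is not reported here.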

Additional observations from a re-analysis of the deposited data

Results flagged for a closer look

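Within a genotype, 1 liver stood apart from the other 3 in 7 of 136 groups of 4 tested, by the gap to its nearest neighbour over the whole range (Dixon's ratio, 95% critical value for 4 samples). Chance gives about 1 in 20. Otc (probe A_52_P286360) had a ratio of 0.903 in Rap1 -/- livers, with replicate 3 at 5.99 and the others at 6.29 to 6.33. With the other Otc probe, A_51_P126563, replicate 3 did not stand apart, at 4.23 between 4.16 and 4.43. Arg2 had 0.840 in wild-type livers, with replicate 4 at -3.65 and the others at -6.26 to -5.84, mostly below background. Cdh1 had 0.961 in Rap1 -/- livers, with replicate 2 at 2.02 and the others at 1.30 to 1.32. Ahsg, a hepatocyte marker, had 0.850 in wild-type livers, with replicate 1 at 10.89 and the others at 10.65 to 10.68. In Rap1 -/- livers, replicate 3 also stood apart for S100a9, a neutrophil marker, at 2.33 against 1.12 to 1.23 in the others (ratio 0.914). The same replicate was highest for the globin genes Hbb-bt, at 6.57 against 5.54 to 5.70 (ratio 0.841), and Hba-a1, at 8.07 against 7.09 to 7.19 (ratio 0.899).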

How the results depend on the processing

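None of the 10 genes passed an adjusted p under 0.05 in limma under any of the 21 alternatives. The smallest adjusted p was 0.590, for Otc with normexp and the 75th percentile. Otc, Slc25a15, Asl, Arg1, Gls2 and Hal were above 0 in 21 of 21 alternatives. The filters, the variance model and the blocks by slide or replicate left the estimates of the 10 genes unchanged. These alternatives could therefore not turn a sign, nor could averaging the probes of a gene with 1 probe. Leaving out 1 array at a time, the median of the 10 genes ran from 0.08 to 0.26. Median scaling shifts all genes of an array alike and moved the median of all genes to 0.18. The median of the 10 genes minus that of all genes was 0.13 with the 75th percentile and 0.06 to 0.07 with quantile normalization or in the authors' table.

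In the main fit 0 of the 10 genes were at an unadjusted p under 0.05, against 6.36% of all genes. Otc alone was with normexp and the 75th percentile (8.22% of all genes) and with median scaling (6.87%). The same held with probes well above background on all 8 arrays (6.45%), a trended and robust variance (6.38%) and within slide 1 (4.31%). Leaving out 1 array, the number was 0 to 3. It was 3 without wild-type replicate 3 (6.55% of all genes) and 1 without Rap1 -/- replicate 3 (5.67%). The sign turned for genes near 0. Nags was 0.045 with normexp and the 75th percentile, 0.15 with median scaling, 0.21 within slide 1 and -0.0791 to 0.0892 leaving out 1 array. Ass1 was -0.0146 with normexp and quantile normalization, -0.0231 in the authors' table, -0.11 within slide 2 and -0.0577 to 0.180 leaving out 1 array. Sds was -0.0348 with normexp and quantile normalization, -0.0434 with quantile normalization, -0.0425 in the authors' table, -0.16 within slide 2 and -0.12 to 0.17 leaving out 1 array. Cps1 was -0.0021 within slide 2. The cause was not tested.

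Over all genes, 2 passed the adjusted threshold, against 0 with normexp and quantile normalization, in the authors' table and within slide 1, and 1 with quantile normalization, no filter, the filter on all 8 arrays, the slide as a block, within slide 2 and leaving out any 1 array. Of probes, 2 passed, against 0 with the filter on all 8 arrays and within slide 1, 1 in the authors' table and within slide 2, 4 with a trended and robust variance and 1 to 2 leaving out 1 array. With normexp and the 75th percentile 3 genes and 3 probes passed. The number of genes at an unadjusted p under 0.05 was 894. It was 1156 with normexp and the 75th percentile, 966 with median scaling, 524 within slide 2 and 663 to 921 leaving out 1 array. Of 357 counts of list genes at an unadjusted p under 0.05 under the alternatives, 109 moved by over 1.5 times, between 0 and 11 genes, and in 357 of 357 counts 0 list genes passed the adjusted threshold.

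The labels number the replicates without naming pairs. The deviations of same-numbered livers correlated at 0.09, -0.18, -0.07 and 0.10, and no liver correlated best with its own number in the other genotype. With the replicate block 0 genes and 1 probe passed the adjusted threshold, and the smallest adjusted p of the 10 genes was 0.804.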
